A study of Mus musculus with 12 samples.

Results

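Genes of the lysosome and of the vacuolar ATPase (V-ATPase), the proton pump that acidifies it, were followed in the blood of mice before and after training. The set held 33 genes chosen by name: 5 lysosomal membrane proteins, 9 proteases, 5 glycosidases, 6 genes of lipid handling, a regulator and a channel, and 6 V-ATPase genes. All 33 were among the 27381 features measured on the arrays, and each had a mean level above the median feature mean of 1.47 (log2 intensity). Blood came from C57Bl6/J mice (spelled C57B16/J in the labels), 16 male and 18 female according to the labels. The mice had surgery for head fixation at 8 to 12 weeks of age. They were later deprived of water and held by the head on a ball floating on air. Trained mice learned to answer a visual cue for a water reward, whereas untrained (control) mice saw the same cues with water given at random. Paired mice had the same number of training days. Trials per session varied between the groups, although the study reports no significant difference in total trials. The pre sample came from the fronto-nasal sinus of anaesthetised mice on the day of surgery, and the post sample was trunk blood collected at decapitation. The collection site, age, surgery and water restriction therefore all changed with time. There were 4 groups of 3 arrays (untrained pre, untrained post, trained pre and trained post), each array holding 1 pool of RNA from 7 mice depleted of globin transcripts. In every group, 2 arrays belonged to batch 1 and 1 array to batch 2, a repeat of the experiment. The study describes the pools of batch 1 as unique, but the labels and its text do not give the same number of mice. The 34 mice of the labels are too few for 3 separate pools of 7 trained and of 7 untrained mice. Whether pools shared mice is not given, so the 3 arrays of a group may not be independent. Blood was taken from the same mice before and after training, and trained and untrained mice were same-sex littermate pairs. Which mice entered which pool is not given, and the model used no pairing. The p-values reflect how much these pools varied.

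Lysosomes are acidic compartments in which cells break down proteins, sugars and lipids taken in from outside or delivered by autophagy. The V-ATPase pumps protons into the lumen with a soluble V1 sector, which splits ATP, and a V0 sector in the membrane, which carries the protons. In blood, lysosomes are abundant in monocytes and other phagocytes, platelets carry granules related to lysosomes, and antigen-presenting cells use lysosomal proteases to prepare peptides for MHC class II. The transcription factor TFEB, encoded by one of the genes here, is known to bind the CLEAR element, an E-box with the core TCACGTGA, near the start of many lysosome genes.

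This shared sequence was looked for in promoter windows of RefSeq (assembly GRCm38.p6), each running from 250 bases before to 50 bases after a gene start, with a window for 27 of the 33 genes. Asah1, Atp6v1b2, Atp6v1h, Ctsb, Ctsh and Npc1 were not matched. The core TCACGTGA lay in the window of 6 of the 27 genes (22.22%), against 304 of 27025 genes in the table (1.125%) and 1.406% of protein coding genes. The shorter E-box CACGTG, which is contained in the core, lay in 10 of the 27 (37.04%), against 8.093% of all genes and 8.913% of protein coding genes. Both strings read the same on either strand, so 1 search covers both. A match describes the letters of the window and is not a measured binding site. The sequences below belong to the genes that passed the test in the comparison of post with pre blood and had a match, and to 1 gene each of the proteases, the glycosidases, the channel and both V-ATPase sectors with the full core. Capitals mark the E-box or the core, and each is given 5′ to 3′ on the strand of its gene.
Lamp1, chr8:13159089-13159160 (+): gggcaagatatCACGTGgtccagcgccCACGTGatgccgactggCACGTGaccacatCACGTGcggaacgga
Ctsd, chr7:142387908-142387937 (-): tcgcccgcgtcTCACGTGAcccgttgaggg
Ctsl, chr13:64370740-64370767 (-): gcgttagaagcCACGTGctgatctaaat
Ctsa, chr2:164833749-164833778 (+): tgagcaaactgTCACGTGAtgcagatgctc
Gla, chrX:134601215-134601244 (-): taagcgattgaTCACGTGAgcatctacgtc
Mcoln1, chr8:3500462-3500491 (+): aggcgccccgcTCACGTGAccgcggcgcat
Atp6v0d1, chr8:105566050-105566079 (-): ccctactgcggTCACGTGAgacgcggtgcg
Atp6v1a, chr16:44139373-44139402 (-): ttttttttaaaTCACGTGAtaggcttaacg
The 72 bases up to the Lamp1 start hold 4 E-boxes, and 3 genes in the whole table had a window with 4. Ctsa and Gla each held a pair of full cores in the window, of which 1 is shown.

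Array medians ranged from 1.436 to 1.519, and pairs of arrays correlated at an r of 0.947 to 0.978 over all features. The batch term of the limma model called 43 of 27381 features and 0 of the 33 genes, and 7 of the 33 (21.2%) had an unadjusted limma p under 0.05 for batch, against 541 of all features (1.98%). These 7 genes (Lamp2, Ctsa, Ctsd, Ctsh, Ctss, Tpp1 and Grn) were all lower in batch 2. Some arrays stood apart in markers of tissues other than blood. The first untrained pre array had the highest score for skeletal muscle markers, a mean deviation of 1.39 (log2) from their average over the arrays. The first untrained post array and the second trained post array had the highest scores for markers of airway and skin epithelium (2.06 and 2.20), and the second trained post array also had the highest mean deviation of the 33 lysosome genes (0.34). Erythroid markers averaged 6.17 to 6.77 and platelet markers 6.92 to 7.77 per array; the markers of blood were thus present in every array. Since whole blood was measured, fewer cells of a type and less RNA per cell cannot be told apart.

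The first question was how the lysosome genes differed between post and pre blood over both groups of mice. In limma, 4 of the 33 genes passed an adjusted p of 0.05 over all features, 3 higher (Lamp1, Ctsd and Ctsl) and 1 lower (Ctsh). The background was 3.21% of features called, 1.30% higher and 1.92% lower, and 6.11% of features at or above the median level. At an unadjusted p under 0.05 there were 10 of the 33 genes and 15.5% of all features. Shares of all features, here and below, include features of low level, whereas 20 of the 33 genes lay above the 90th percentile of level. Such shares are therefore not matched to the genes. The median difference of the 33 genes was 0.07 (log2), with 17 positive and 16 negative, against 0.01 over all features. Positive and negative differences were thus about equal in number, and the roles are described one by one. The median was 0.22 in batch 1 and -0.10 in batch 2. It ran from 0.01 (without untrained post 1) to 0.13 (without trained post 3) with 1 array left out, and was -0.02 without the 2 arrays of highest airway score.

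Of the 5 lysosomal membrane proteins, 1 (Lamp1) rose and 4 did not pass the test, and the mean of each was higher after the training period in both groups of mice and in both batches. Lamp1, a heavily glycosylated protein that lines the lysosomal membrane, was measured at 5.79, 5.64 and 5.53 in the untrained pre arrays and at 6.13, 6.09 and 5.98 in the untrained post arrays. In trained mice the levels of Lamp1 were 5.54, 5.98 and 5.34 before and 6.11, 6.55 and 6.18 after. The lowest of the 6 post arrays lay just above the highest of the 6 pre arrays, so the levels did not overlap. Lamp1 rose by 0.54 ± 0.11 (log2, SE), a 1.45-fold change (limma adjusted p = 0.0192), with 0.48 in batch 1 and 0.65 in batch 2. Its call was lost without the second untrained pre array (0.51), the third trained pre array (0.49) or the third trained post array (0.52).

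Lamp2, the partner of Lamp1 that also serves as a receptor for chaperone-mediated autophagy, differed by 0.46 ± 0.12 (adjusted p = 0.0645). Its levels in untrained mice were 5.66, 5.76 and 5.40 before and 6.10, 6.26 and 5.89 after. The untrained groups did not overlap, while in trained mice the second pre array (6.13) lay above post arrays at 5.92 and 5.97. Cd63, a tetraspanin of late endosomes, lysosomes and platelet granules, differed by 0.38 ± 0.13 (adjusted p = 0.148). Laptm5, found mainly in blood cells, and Laptm4a, its widely expressed relative, differed by 0.24 ± 0.10 and 0.21 ± 0.10 (adjusted p = 0.260 and 0.343). The median over the 5 membrane proteins was 0.38, with 0.40 in batch 1 and 0.18 in batch 2.

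**Figure D1:**
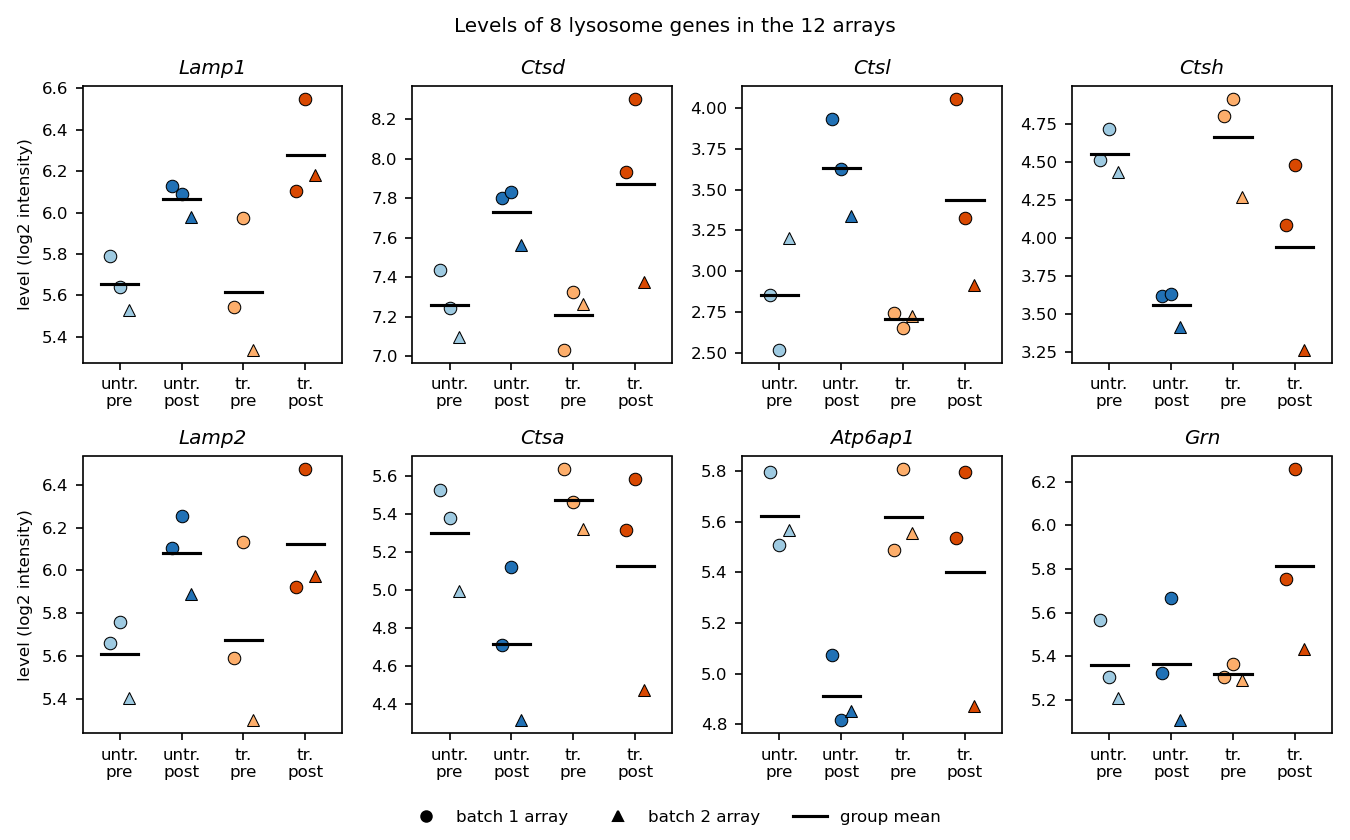
Levels (log2 intensity, vertical axes with a range of their own) of 8 lysosome genes in the 12 arrays by group, with circles for batch 1, triangles for batch 2 and a bar for the group mean. Group means of Lamp1, Lamp2, Ctsd and Ctsl are higher and that of Ctsh is lower after the training period in untrained and trained mice. In trained mice the pre and post arrays of Lamp2 and Ctsh overlap. The batch 2 array of the trained post group lies far below the batch 1 arrays of that group for Ctsd, Ctsh, Ctsa and Atp6ap1.

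Of the 9 proteases, 2 rose (Ctsd and Ctsl), 1 fell (Ctsh) and 6 did not pass the test. The differences were positive for 4 and negative for 5, and each had the same sign in both batches. Cathepsin H (Ctsh), a cysteine protease that trims peptides from their amino end, was measured at 4.51, 4.72 and 4.43 in untrained pre arrays and at 3.62, 3.63 and 3.42 in untrained post arrays. In trained mice Ctsh stood at 4.80, 4.92 and 4.27 before and at 4.08, 4.48 and 3.26 after. Levels in untrained mice lay far apart, while in trained mice the second post array exceeded the third pre array. Ctsh fell by 0.86 ± 0.13 (log2), a 1.81-fold change, with an adjusted p of 0.00486 in limma. It was -0.78 in batch 1 and -1.01 in batch 2, and it passed the threshold in each of 21 alternative settings that gave a test (adjusted p from 0.00313 to 0.0443).

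Cathepsin D (Ctsd), the main aspartic protease of lysosomes, had 7.44, 7.24 and 7.10 in untrained pre arrays and 7.80, 7.83 and 7.57 in untrained post arrays. In trained mice Ctsd had 7.03, 7.33 and 7.26 before and 7.93, 8.30 and 7.38 after. The groups did not overlap in either kind of mouse, although the third trained post array lay only just above its pre arrays. Ctsd rose by 0.57 ± 0.12 (adjusted p = 0.0260), with 0.71 in batch 1 and 0.29 in batch 2. The call of Ctsd was lost without any 1 of 6 arrays: untrained pre 2 (0.54) and 3 (0.58), untrained post 1 (0.58) and 3 (0.56), trained pre 1 (0.50) and trained post 2 (0.48).

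Cathepsin L (Ctsl), a cysteine endopeptidase, was measured at 2.85, 2.52 and 3.20 in untrained pre arrays and at 3.93, 3.63 and 3.34 in untrained post arrays. In trained mice its levels were 2.74, 2.66 and 2.73 before and 4.06, 3.33 and 2.92 after. Each post group lay above its own pre group, with the widest gap in batch 1. Ctsl rose by 0.75 ± 0.18, a 1.68-fold change (adjusted p = 0.0441), with 1.04 in batch 1 and 0.16 in batch 2. This call remained only without untrained pre 3 or trained post 3 and was lost without each of the other 10 arrays (0.60 to 0.81, adjusted p up to 0.114).

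Cathepsin A (Ctsa), a carboxypeptidase that also protects lysosomal beta-galactosidase and neuraminidase, differed by -0.47 ± 0.12 (adjusted p = 0.0589). Its levels ran from 4.99 to 5.64 over the 6 pre arrays and from 4.31 to 5.59 over the 6 post arrays, and they overlapped. Cathepsin S (Ctss), which cuts the invariant chain of MHC class II in antigen-presenting cells, differed by -0.44 ± 0.18 (adjusted p = 0.266), and was -0.16 in batch 1 and -0.99 in batch 2. Ctsc, which activates serine proteases of granules, differed by -0.36 ± 0.26 and Ctsb, an abundant cathepsin with endopeptidase activity, by -0.10 ± 0.10. Tpp1, a tripeptidyl peptidase, and Ctsz, a carboxypeptidase, differed by 0.21 ± 0.10 and 0.14 ± 0.09. None of these 6 passed the adjusted threshold.

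**Figure D2:**
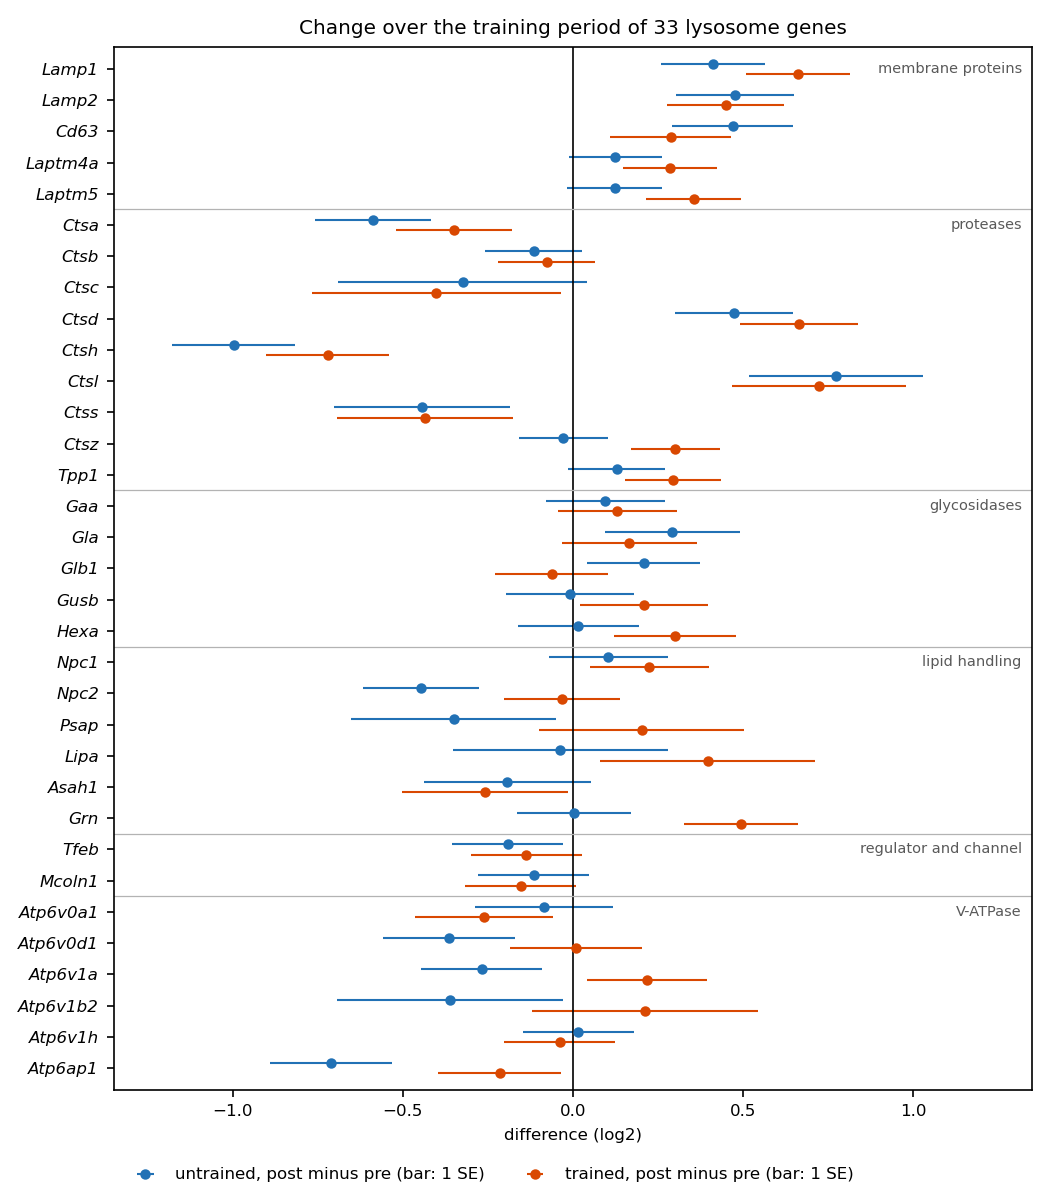
Difference between post and pre arrays (log2, horizontal axis; bars are 1 standard error of the limma model) for each of the 33 genes in untrained (blue) and trained (red) mice, ordered by role. All 5 membrane proteins lie to the right of 0 in both kinds of mice, whereas proteases lie on both sides and most V-ATPase genes lie to the left in untrained mice.

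Glycosidases showed small differences that did not pass the test. All 5 were positive (median 0.11, from 0.07 to 0.23), but the median was 0.24 in batch 1 and 0.03 in batch 2. Gla, the alpha-galactosidase that clears globotriaosylceramide, had the largest difference of the 5 (0.23 ± 0.14, adjusted p = 0.491). Hexa, a subunit of beta-hexosaminidase A, differed by 0.16 ± 0.13, and Gaa, which degrades glycogen, by 0.11 ± 0.12. Gusb (beta-glucuronidase) and Glb1 (beta-galactosidase) differed by 0.10 ± 0.13 and 0.07 ± 0.12.

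Genes of lipid handling were split, 3 positive and 3 negative, and 0 of 6 passed the adjusted threshold. Grn, the precursor of granulins, differed by 0.25 ± 0.12 (adjusted p = 0.345). Npc2, which hands cholesterol to Npc1 for export from the lysosome, differed by -0.24 ± 0.12, and Npc1 itself by 0.17 ± 0.12. Lipa, the acid lipase, was 0.57 in batch 1 and -0.61 in batch 2, and Psap, the precursor of the saposins, was 0.25 and -0.73. These 2 genes thus went in opposite directions in the 2 batches, and Asah1 (acid ceramidase) differed by -0.23 ± 0.17. The median of the 6 was 0.05, with 0.29 in batch 1 and -0.25 in batch 2.

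Tfeb, the transcription factor of the CLEAR element, differed by -0.16 ± 0.12 (adjusted p = 0.565) and Mcoln1, a calcium channel of the lysosomal membrane, by -0.13 ± 0.11 (adjusted p = 0.656). Among the genes with a promoter window, the 6 with the full core (Ctsa, Ctsd, Gla, Mcoln1, Atp6v0d1 and Atp6v1a) had a median difference of -0.08, with 2 positive and 4 negative. The 21 without it had a median of 0.14, with 14 positive and 7 negative. Split by the shorter E-box, the medians were 0.09 for the 10 genes with it (6 positive, 4 negative) and 0.14 for the 17 without it. For trained against untrained mice after training, the order by the full core was the other way, 0.13 with it and 0.07 without. Of the genes that rose, Ctsd held the core, while Lamp1 and Ctsl held only the shorter E-box.

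All 6 V-ATPase genes had a negative difference, with a median of -0.12 (-0.15 in batch 1 and -0.24 in batch 2), and 0 of 6 passed the adjusted threshold. Atp6ap1, an accessory subunit of the V0 sector, had the largest, -0.46 ± 0.13 (adjusted p = 0.0766). Its levels were 5.80, 5.51 and 5.57 in untrained pre and 5.07, 4.81 and 4.85 in untrained post arrays, and 5.49, 5.81 and 5.55 in trained pre and 5.54, 5.80 and 4.87 in trained post arrays. All 3 untrained post arrays and the third trained post array lay below every pre array. The V0 subunits Atp6v0a1 and Atp6v0d1 differed by -0.17 ± 0.14 and -0.18 ± 0.14. For the V1 subunits the differences were -0.02 ± 0.13 for Atp6v1a, which holds the catalytic site, -0.07 ± 0.24 for Atp6v1b2 and -0.01 ± 0.12 for Atp6v1h. The direction was the same in both batches for 3 of the 6 genes (Atp6ap1, Atp6v0a1 and Atp6v0d1). By group, 5 of the 6 were negative in untrained mice, whereas 3 were positive and 3 negative in trained mice. The 18 other V-ATPase subunits measured had a median of 0.09 over both groups, with 11 positive and 7 negative, 1 called higher and 1 lower.

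Markers of several cell types differed between the same arrays. Tissue macrophage markers averaged 1.38 to 1.72 over the pre arrays and 1.80 to 2.52 over the post arrays, and 4 of 11 rose (Gpnmb, Spp1, Mmp12 and Mrc1). Their median was 0.36 in batch 1 and 0.11 in batch 2, and Cd163, Mrc1 and Vsig4 had means below the median feature mean. The rises of Gpnmb (3.09 in batch 1 and 0.31 in batch 2), Spp1 (2.08 and 0.12) and Mmp12 (2.41 and 0.02) lay mostly in batch 1. Mrc1 was 0.44 and 0.22. Airway and skin epithelium markers averaged 1.03 to 1.65 before and 2.42 to 4.44 after, with 3 of 7 higher (Bpifa1, Cyp2f2 and Scgb1a1) and Krt14 and Epcam below the median feature mean. The median of this list was 2.23 in batch 1 and 0.50 in batch 2. Scgb1a1 was 6.05 and 0.55, Bpifa1 5.38 and 2.32, and Cyp2f2 4.04 and 1.89. Platelet markers averaged 6.92 to 7.25 before and 7.42 to 7.77 after, with 7 of 12 higher. MHC class II genes averaged 5.62 to 6.21 before and 4.23 to 5.52 after, with 9 of 10 lower, and B cell markers 5.92 to 6.13 and 3.86 to 5.50, with 11 of 12 lower. Among monocyte markers 1 of 13 rose (F13a1) and 1 fell (Cx3cr1), with a median of -0.28, and 3 of 13 neutrophil markers fell. The part of these cell types in the changes of Lamp1, Ctsd, Ctsl and Ctsh was not tested. A further fit left out the first untrained post and second trained post arrays, those with the highest airway score. Lamp1, Ctsd and Ctsl then differed by 0.48, 0.48 and 0.73 and no longer passed, and Ctsh was still called. That fit had fewer arrays, and trained post 2 also had the highest mean deviation of the 33 lysosome genes (0.34). It is therefore no test of the airway content.

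**Figure D3:**
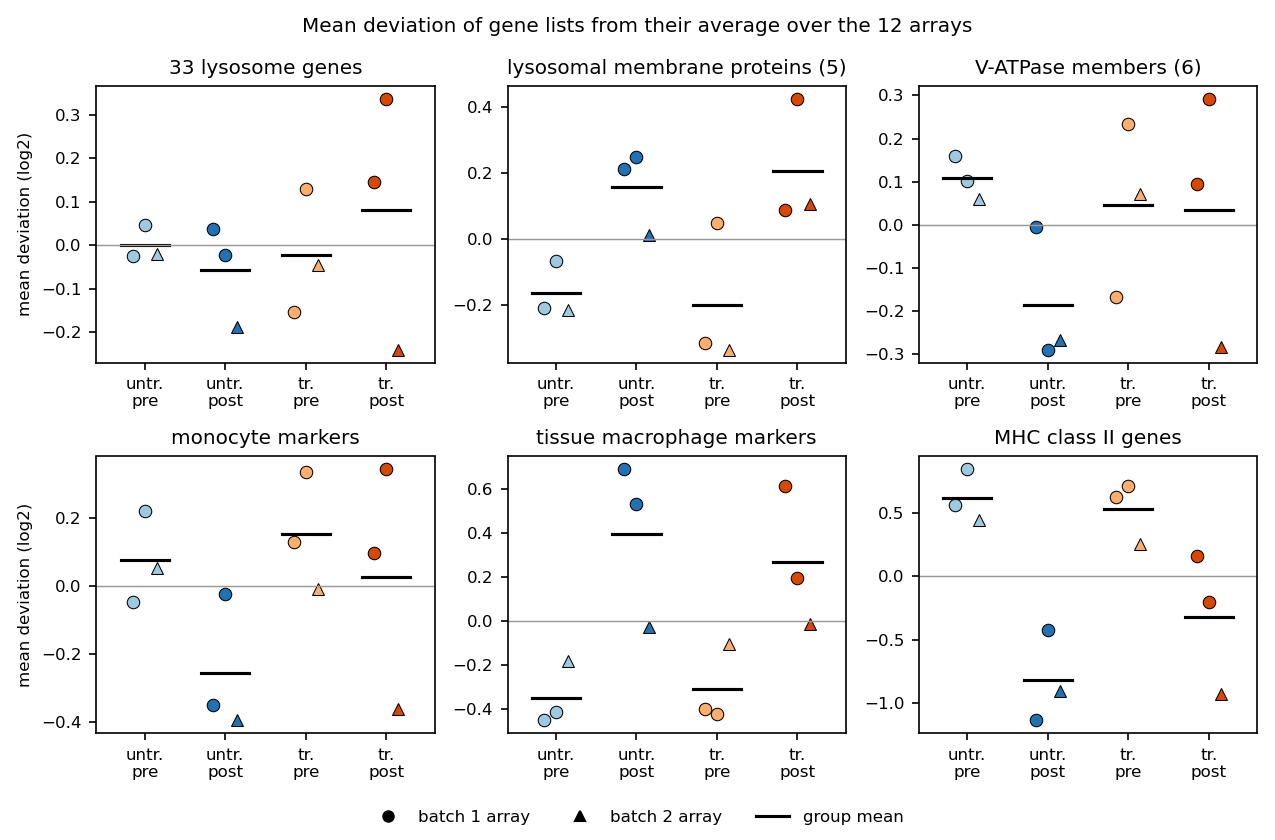
Mean deviation (log2) of 6 gene lists from their average over the 12 arrays, by group, with circles for batch 1, triangles for batch 2 and a bar for the group mean. The tissue macrophage markers lie higher and the MHC class II genes lower in post arrays. The lysosomal membrane proteins have higher group means in post arrays, although trained pre 2 lies above untrained post 3. The 33 lysosome genes as a whole are highest in the second and lowest in the third trained post array.

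A wider list of lysosome genes outside the 33 held 109 names, of which 108 were measured. In the comparison of post with pre over both groups, 4 rose and 4 fell, and the median difference of the 108 was -0.003. The share called was 7.41%, against 3.21% of all features and 6.11% of features at or above the median level. Ctsk, a collagen-degrading cathepsin known best from osteoclasts, rose by 0.84 ± 0.12 (adjusted p = 0.00395), with 0.83 in batch 1 and 0.87 in batch 2. Its levels ran from 1.69 to 2.56 over the 6 post arrays, and all 6 pre arrays lay below that range. Atp6v0d2, a V0 subunit that stands in for Atp6v0d1 in osteoclasts and some macrophages, rose by 1.07 ± 0.26 (adjusted p = 0.0479). The 4 post arrays of batch 1 lay between 2.01 and 2.86, and those of batch 2 at 1.22 and 1.46, where the difference from pre was -0.03. Both Ctsk and Atp6v0d2 had low mean levels (1.66 and 1.51), near the median feature mean of 1.47. Osteoclast markers had a median of -0.07 in the same comparison, and 0 of 7 passed the adjusted threshold. An unadjusted limma p under 0.05 was found for 2 of 7, against 15.5% of all features. These were Dcstamp (0.33 ± 0.09) and Acp5 (-0.55 ± 0.14, adjusted p = 0.0546), which went opposite ways. Oscar, Calcr and Mst1r had means below the median feature mean. The source of Ctsk and Atp6v0d2 was not tested.

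Of 14 genes that sort enzymes towards lysosomes, 1 rose and 2 fell, and the median of the 14 was -0.002. The background was 3.21% of all features called and 6.11% of features at or above the median level. Sort1, the sorting receptor sortilin, rose by 0.82 ± 0.15 (adjusted p = 0.0130), whereas Ap1m1, a subunit of the AP-1 clathrin adaptor, fell by 0.77 ± 0.11 (adjusted p = 0.00434) and Gga2, another adaptor of the same route, fell by 0.39 ± 0.09 (adjusted p = 0.0344). In untrained mice alone Ap1m1 fell by 1.04 and Gga2 by 0.67, and both passed. Neither passed in trained mice, where Gga2 stood at 2.35, 2.35 and 2.49 before and 2.33, 2.24 and 2.28 after. Of the other membrane proteins, Litaf, a regulator of endosomal traffic, rose by 0.55 ± 0.11 and Lmbrd1, which takes part in cobalamin export, fell by 0.52 ± 0.12. Atp6v1d, a stalk subunit of the V1 sector, fell by 0.46 ± 0.11 (adjusted p = 0.0396). The direction was the same in both batches for all 4 falling genes and for the rising genes other than Atp6v0d2.

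The same question was then asked within each group of mice. These 2 comparisons use separate arrays, and together they make up the comparison over both groups, so they are not independent of it. In untrained mice 1 of the 33 genes passed, Ctsh, which fell by 1.00 ± 0.18 (adjusted p = 0.0367), against 0.676% of all features and 0.511% that were lower. This call was lost without 5 of the 6 arrays (-1.13 to -0.86, adjusted p up to 0.166) and remained without untrained pre 1 alone. At an unadjusted p under 0.05 there were 9 of the 33 genes and 12.6% of all features, a share not matched for level. The next lower genes were Atp6ap1 (-0.71 ± 0.18, adjusted p = 0.0982) and Ctsa (-0.59 ± 0.17, adjusted p = 0.148). In the 3 untrained arrays before and after, 8 of the 33 genes did not overlap (5 higher, 3 lower), compared with 18.7% of all features.

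In trained mice 0 of the 33 genes passed in limma, with 8 at an unadjusted p under 0.05, against 0.281% of features called and 10.4% at the unadjusted threshold. Lamp1 came closest, with 0.66 ± 0.15 (adjusted p = 0.105), followed by Ctsh (-0.72 ± 0.18, adjusted p = 0.127) and Ctsd (0.66 ± 0.17, adjusted p = 0.141). Without trained pre 2, Lamp1 was 0.81 and passed (adjusted p = 0.0375). Grn differed by 0.49 ± 0.17 (adjusted p = 0.272). All 8 genes whose trained groups did not overlap were higher after training (Lamp1, Cd63, Laptm5, Ctsd, Ctsl, Ctsz, Tpp1 and Grn), compared with 16.3% of all features in either direction. The median of the 33 genes was 0.20, but it was 0.30 in batch 1 and -0.21 in batch 2, and 0.04, 0.05 and 0.03 without trained pre 1, trained post 1 and trained post 2. In untrained mice the median was -0.03, with 0.01 and -0.02 in the 2 batches, and ran from -0.08 to 0.04 with 1 array left out.

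The interaction of training and time asks whether the change over the period differed between the groups. For the 33 genes it passed for 0 in limma and for 0 at an unadjusted p under 0.05, against 0.00365% of features called and 5.67% at the unadjusted threshold. The smallest p belonged to Grn (0.49 ± 0.24, adjusted p = 0.884), Atp6v1a (0.49 ± 0.25, adjusted p = 0.885) and Atp6ap1 (0.50 ± 0.26, adjusted p = 0.885). The standard errors of the interaction had a median of 0.25 over the 33 genes. The median over the 33 genes was 0.17, with 23 positive and 10 negative (0.27 in batch 1 and 0.03 in batch 2). The median was 0.05 without trained pre 1, 0.08 without trained post 2 and 0.28 without trained post 3, and 0.06 after quantile normalization.

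The comparison of trained with untrained mice after training addresses training itself, and here 0 of the 33 genes and 0% of all features passed in limma. At an unadjusted p under 0.05 there were 3 of the 33 genes (Atp6ap1, Grn and Ctsa, all higher in trained mice) and 6.41% of all features. No gene of the 33 had groups without overlap, compared with 12.1% of features. The median was 0.13 with 25 positive and 8 negative, against -0.01 over all features, of which 46.7% were positive. The median was 0.22 in batch 1, where 26 genes were positive, and 0.01 in batch 2, where 17 were. Without trained post 2 it was 0.02, without untrained post 2 it was 0.08 and without trained post 3 it was 0.20, and it was 0.06 without the 2 arrays of highest airway score and 0.05 after quantile normalization. Of the 33, 14 were positive in both batches, 4 negative in both and 15 opposite.

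Grn was measured at 5.32, 5.67 and 5.11 in untrained and at 5.76, 6.26 and 5.43 in trained post arrays. The trained arrays were higher in both batches (0.51 and 0.32), but the groups overlapped. The difference was 0.45 ± 0.17 (adjusted p = 0.723). Atp6ap1, with 5.07, 4.81 and 4.85 against 5.54, 5.80 and 4.87, differed by 0.49 ± 0.18 (adjusted p = 0.723). Its difference was 0.72 in batch 1 and 0.02 in batch 2, so it was seen in batch 1. Ctsa had 4.71, 5.12 and 4.31 in untrained and 5.32, 5.59 and 4.47 in trained post arrays, a difference of 0.41 ± 0.17 (adjusted p = 0.766).

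By role, the 6 genes of lipid handling were all positive in this comparison (median 0.35), with 0.47 in batch 1 and 0.02 in batch 2. The V-ATPase genes were positive for 5 of 6 (median 0.17; 0.27 and 0.08 in the 2 batches), and Atp6v1b2 had the largest difference, 0.57 ± 0.33. Proteases were positive for 8 of 9 (median 0.14), with 0.30 in batch 1 and -0.15 in batch 2. Glycosidases (median -0.002) and membrane proteins (median 0.04) were near 0. The genes with the smallest p among the lower ones were Cd63 (-0.23 ± 0.18), Glb1 (-0.17 ± 0.17) and Ctsl (-0.20 ± 0.26). In the same arrays, the monocyte markers had a median of 0.34 with 12 of 13 positive (0.47 in batch 1 and 0.01 in batch 2), and MHC class II genes had a median of 0.61 (0.82 and -0.15). Markers of B cells, T cells and NK cells were also all positive, with medians of 0.49, 0.29 and 0.47. Those medians were -0.14, 0.004 and 0.30 in batch 2. Neutrophil markers had a median of 0.18 and tissue macrophage markers one of -0.09. The part of these cell types in the lysosome values was not tested.

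**Figure D4:**
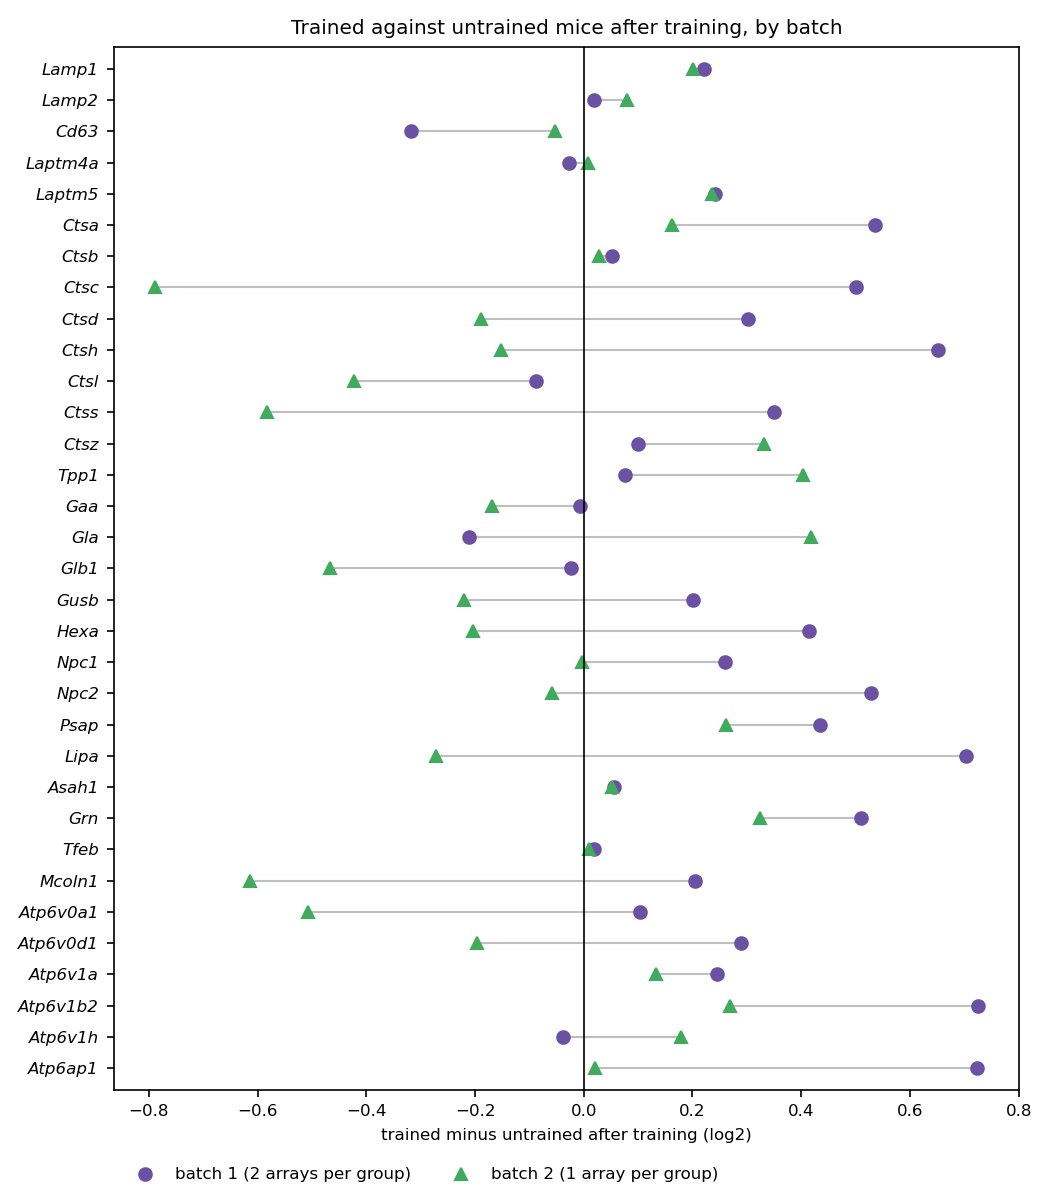
Difference between trained and untrained post arrays (log2, horizontal axis) for each of the 33 genes in batch 1 (circles, 2 arrays per group) and batch 2 (triangles, 1 array per group), joined by a line. Of the 33 genes, 15 lie on opposite sides of 0 in the 2 batches, with the widest gap for Ctsc, and Grn lies above 0 in both.

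The gap between the batches came largely with the trained post arrays. Of the 33 genes, 14 had their highest level of all 12 arrays in trained post 2, and the third trained post array had the lowest mean deviation (-0.24, against 0.34 in trained post 2). Monocyte markers stood at 0.34 and -0.36 in those arrays, but at -0.35 in untrained post 1, where the 33 genes stood at 0.04. Other markers also differed between trained post 2 and trained post 3. These were markers of neutrophils (-0.12 and -0.76), T cells (0.17 and -0.49), NK cells (0.57 and -0.31) and airway and skin epithelium (2.20 and 0.18). Their part in the gap was not tested. Among the 33 genes, Ctss was 6.35 in trained post 2 and 4.67 in trained post 3, and Ctsc was 4.59 and 2.97. Within groups the SD ranged from 0.13 (Ctsz) to 0.56 (Ctsc), with a median of 0.26, and it exceeded 0.4 for 5 genes. Genes with a small SD, such as Ctsz, Laptm4a and Laptm5, thus had the more precise values.

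Before training, the groups were compared as a check on their starting point. In limma 0 of the 33 genes passed and 0 had an unadjusted p under 0.05, against 0% and 4.20% of all features. The median difference was -0.03, with 14 positive and 19 negative, and was -0.01 over all features. Atp6v1a had the largest difference, -0.28 ± 0.18 (adjusted p = 0.999), with 2.60, 2.58 and 2.60 in untrained and 1.99, 2.38 and 2.57 in trained pre arrays. It was the only 1 of the 33 genes whose pre groups did not overlap, against 10.8% of all features. Atp6v0d1 differed by -0.25 ± 0.19, but its level of 6.26 in untrained pre 1, the array with the high muscle score, stood above the 5.16 to 5.65 of the other arrays, and the difference was 0.01 without it. The genes with the smallest p among the higher ones were Ctsa (0.17 ± 0.17), Glb1 (0.10 ± 0.17) and Gla (0.13 ± 0.20), and Laptm4a (-0.18 ± 0.14) was also among the lower ones.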

How the data were processed

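The authors deposited log2 intensities computed from Mouse Gene 2.0 ST array scans by Robust Multiarray Average with probe sets defined per Entrez gene (affy 1.62.0 under R 3.6.0, by the submitters' processing notes). Quantile normalization within that step removes shifts common to all genes. No source used here states whether the batches had been adjusted. All 12 arrays entered without a filter. Symbols came from the platform table for 26794 features and from RefSeq for 564, and 23 stayed unnamed. The functions lmFit and eBayes of limma 3.58.1 (R 4.3.3) fitted 4 group means and a batch term, leaving 7 residual degrees of freedom. All tests were two-sided, and p-values were adjusted by Benjamini-Hochberg over 27381 features at a threshold of 0.05. The steps were tested on simulated data. Levels of different probe sets were not compared as amounts. Genes shown by array passed the threshold in a comparison or had one of the 3 smallest p-values in either direction. The genes and lists were chosen with earlier results of these data known. Arrays with the same replicate number were not treated as paired, since 2 of 18 such pairs had a correlation above 0.1. The alternatives were no batch term, a replicate block, the compared arrays alone, each batch alone, a level filter, quantile normalization, median centring, limma's trend, array weights, each array left out, and an added one without the 2 post arrays of highest airway score.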

Additional observations from a re-analysis of the deposited data

How the results depend on the processing

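Over all alternatives, 0 of the 33 genes passed in the comparisons of trained with untrained mice, before or after training, or in the interaction. The count for post against pre over both groups, 4 in the reported model, was 2 in batch 1 alone (Ctsh and Ctsl) and 1 (Ctsh) without the 2 post arrays of highest airway score, an alternative chosen after seeing the data. Leaving out 1 array at a time it ran from 1 to 4: 1 without untrained pre 2 (Ctsh), and 2 without untrained post 1, untrained post 3 or trained pre 1 (Lamp1 and Ctsh) or without trained pre 3 (Ctsd and Ctsh). In untrained mice the count of 1 became 0 with no batch term, in batch 1 alone, with limma's trend and without the arrays of highest airway score, and ran from 0 to 1 with 1 array left out. In trained mice it ran from 0 to 1. Ctsa (-0.53 and -0.54) passed over both groups without untrained post 2 or trained post 2, and among features at or above the median level (-0.47). Atp6ap1 (-0.54) passed without trained post 2. Lamp2 passed with the level filter (6 genes in all), with quantile normalization (5) and without trained pre 2 or trained post 1, and Ctsl was lost with median centring (0.73). With a replicate block in place of batch, the counts were 5 over both groups (Lamp2 also passed), 1 in untrained and 0 in trained mice, and no call was lost. The median of the genes over time in trained mice was -0.21 in batch 2 alone and 0.0247 without the arrays of highest airway score. Directions turned for Ctsl in trained against untrained mice after training (0.0711 without trained post 3, with a range of -0.502 to 0.0711 when 1 array was left out, and 0.00315 without the arrays of highest airway score), for Atp6v0d1 before training (0.0845 in batch 2 alone, 0.0104 without untrained pre 1, range -0.391 to 0.0104) and for Gla before training (-0.0114 without untrained pre 1, range -0.0114 to 0.246). In the interaction they turned for Atp6v0a1 (0.10 in batch 1 alone) and Cd63 (0.194 in batch 2 alone, 0.0637 without untrained pre 1, range -0.320 to 0.0637). The cause was not tested. Batch 2 alone gave values without a test, and 3 arrays per group limit how small a difference can be called.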
